A study of Mus musculus with 6 samples.

Results

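The nuclear genes of the mitochondrial respiratory chain were followed in mouse osteoclasts, the multinucleated cells that resorb bone. They were taken from the deposited count table by symbol: names starting with Nduf, Uqcr, Atp5 or Cox4 to Cox8, and *Sdha* to *Sdhd*, without rows named as pseudogenes, at 5 or more CPM (counts scaled to the library total) in 3 or more of the 6 libraries. This gave 84 genes of 91 with such names, among 23204 genes in the table, of which 14040 were tested. They comprised 43 genes of complex I, 4 of complex II, 8 of complex III, 12 of complex IV and 17 of complex V. By known role, 76 encode subunits and 8 encode assembly or supercomplex factors. *Ndufa4*, whose product is now placed in complex IV, was counted there. The table held 0 rows of the mitochondrial chromosome, so the subunits encoded in mitochondrial DNA were not analysed here.

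The libraries came from bone marrow of C57BL/6 mice, grown for 2 days in M-CSF and then, as adherent precursors, in RANKL with M-CSF, the cytokine pair that turns macrophage precursors into osteoclasts. The mutant genotype is labelled Tet2Rank–/–; Tet3aRank+/– (3 libraries, numbers 2, 3 and 5), read as both copies of *Tet2* and 1 copy of *Tet3* deleted. The other genotype is labelled wild-type (3 libraries, numbers 1, 4 and 6). Both share the strain, the culture and, per the labels, a mix of sexes. What Rank and the a stand for, the cells in which the deletion takes place, and the number of animals behind each library are not stated there. Libraries are numbered as their column names begin, and values are listed in the orders 2, 3, 5 and 1, 4, 6. Nothing ties a column to a sex or shows that libraries came from separate animals, so a p-value speaks of the spread between these 6 libraries, which may be technical.

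Complexes I and II pass electrons from NADH and succinate to ubiquinone, complex III passes them on to cytochrome c, and complex IV hands them to oxygen. Complexes I, III and IV pump protons across the inner mitochondrial membrane, and complex V, the ATP synthase, uses the returning protons to make ATP. Osteoclasts are rich in mitochondria, and the formation of mitochondria increases while precursors turn into osteoclasts.

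Total counts ran from 9519978 to 14267135 in mutant and from 8794973 to 12845879 in wild-type libraries. Column names of libraries 5 and 6 carry a second number and those of the other 4 do not, a split with both genotypes on each side that is called the naming batch. *Tet2* had 58.1, 45.5 and 52.2 CPM in the mutant libraries and 71.7, 80.7 and 79.2 CPM in the wild-type libraries, without overlap, and stood at 67.3% of wild type (log2 fold change -0.57, SE 0.120, edgeR quasi-likelihood adjusted p = 0.0924). *Tet3* had 163, 141 and 155 CPM in the mutant libraries and 145, 121 and 126 CPM in the wild-type libraries (log2 fold change 0.23, SE 0.117, edgeR adjusted p = 0.36), so its level does not show the loss of a copy, and counts over whole genes include exons outside a deleted stretch. Markers of the labelled cell type were then looked for. All 12 osteoclast markers were present in every library, which does not show what part of the cells were osteoclasts. The tartrate-resistant acid phosphatase gene *Acp5* had 718, 1820 and 2772 CPM in the mutant libraries and 4079, 3379 and 8782 CPM in the wild-type libraries.

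Taken as a group, the respiratory chain genes stood lower in the mutant libraries. Of the 84, 82 had a log2 fold change below 0 and 2 above, against 53.2% of all tested genes below 0. The median log2 fold change of mutant over wild type was -0.68 (quartiles -0.79 and -0.49, range -0.97 for *Uqcrc2* to 0.22 for *Ndufaf7*), against -0.027 over all tested genes. In 65 genes every mutant library was below every wild-type library, which held for 16.9% of all tested genes, and in 0 genes every mutant library was above, against 9.91% of all tested genes. Together the 84 genes took 0.845%, 1.09% and 1.11% of all counts in the mutant libraries and 1.49%, 1.39% and 2.06% in the wild-type libraries. The 3 mutant shares averaged 1.01% ± 0.147 and the 3 wild-type shares 1.65% ± 0.364 (SD, n = 3 each), with 95% Wilson intervals no wider than 0.0080 points to each side, which cover counting error only. In bulk RNA such as this, fewer cells of a type and less RNA per cell cannot be told apart.

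No single gene passed in the fit with genotype alone. With edgeR's quasi-likelihood test and Benjamini-Hochberg adjustment to 0.05 over all 14040 genes, 0 of the 84 were called lower (0.0214% of all tested genes) and 0 higher (0.0499%). Their adjusted p-values ran from 0.0859 for *Ndufa12* to 0.974 for *Ndufaf8*. At an unadjusted p under 0.05, 64 of the 84 were lower, against 12.4% of all tested genes, and 0 were higher, against 7.19%. DESeq2 called 32 of the 84 lower, against 6.00% of the 11951 genes to which it gave an adjusted p, and 0 higher, against 5.26%. With the naming batch as a term, edgeR called 44 of the 84 lower, against 5.60% of all tested genes, and 0 higher, against 3.08%. Of these 44, 27 were also called by DESeq2. The count of 44 was not stable when a library was left out. It was 0 without library 4, 1 without library 2, 8 without library 1 and 64 without library 3. It was also 0 without library 5 or 6. In these 2 fits the other of the pair is alone in its naming batch, so they compare the genotypes in libraries 1 to 4 alone. Each such fit has fewer libraries to estimate the spread, so these counts do not measure the weight of a single library.

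The direction held in both naming batches. Within libraries 1 to 4 the median log2 fold change of the 84 genes was -0.54, with 81 genes below 0, and 0 genes were called (edgeR quasi-likelihood test). Between libraries 5 and 6, which give a ratio with no replicate, it was -0.89, with 83 genes below 0. The interaction of genotype and naming batch was called for 0 of the 14040 genes (0.00%), and at an unadjusted p under 0.05 for 0 of the 84 genes, against 0.919% of all tested genes. With 1 library per genotype in the naming batch of libraries 5 and 6, the interaction test could hardly find a difference, so no conclusion is drawn from it. Leaving out each library in turn kept the median of the 84 genes between -0.78 and -0.42, the nearer to 0 without library 6.

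**Figure D1:**
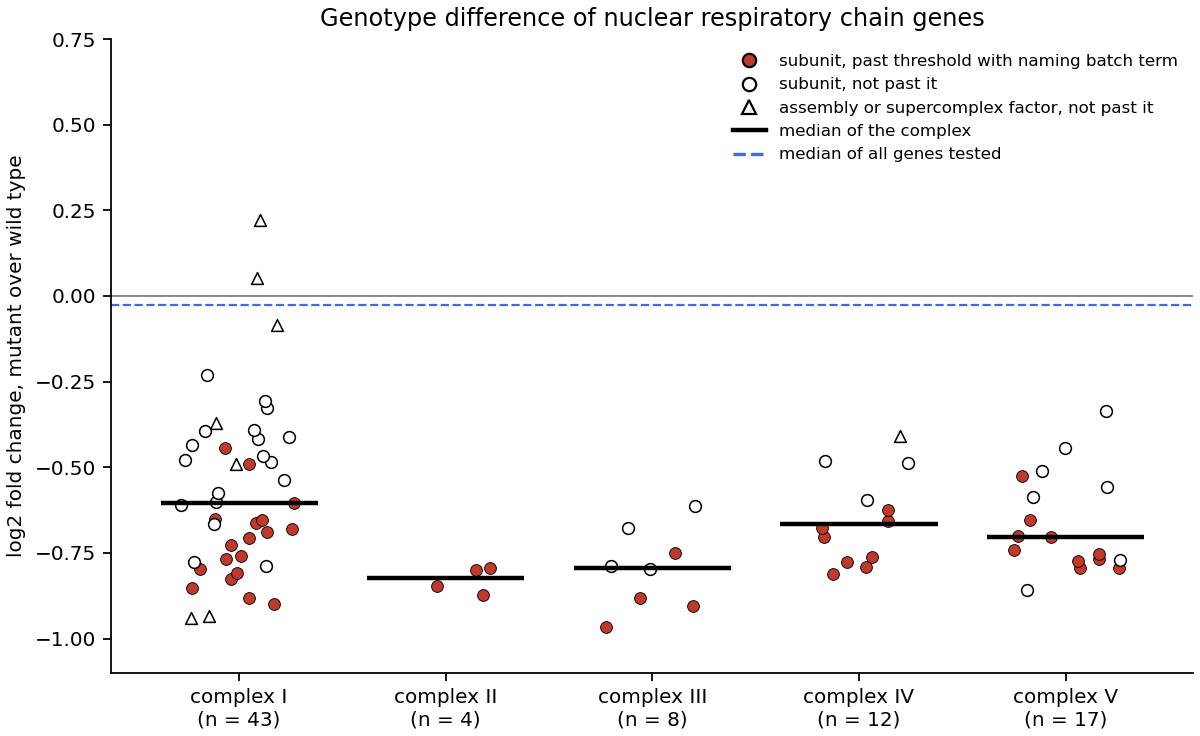
Log2 fold change of mutant over wild type (edgeR, genotype only) for the 84 genes, by complex. Red points are subunits with an adjusted p under 0.05 once the naming batch is a term, open circles other subunits, triangles assembly or supercomplex factors, black bars the median of each complex and the dashed line the median of all 14040 tested genes. Every subunit lies below 0, and the 2 genes above 0 are assembly factors of complex I.

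The libraries did not spread evenly within a genotype. Each gene's log2 CPM was centred on its mean over the 6 libraries, and the median over the 84 genes was -0.52, -0.26 and -0.16 in mutant libraries 2, 3 and 5 and 0.21, 0.048 and 0.73 in wild-type libraries 1, 4 and 6. The same medians over all tested genes lay between -0.024 and 0.044. Library 2 was the lowest library for 69 of the 84 genes and library 6 the highest for 79, and 67 genes had both. Library 4, the lowest of the wild-type libraries, was still above library 5, the highest of the mutants. *Cox7c*, a small complex IV subunit named after its values were seen, followed another order. It had 59.2, 68.6 and 42.0 CPM in the mutant libraries and 101, 94.2 and 81.7 CPM in the wild-type libraries, lowest in library 5 and highest in library 1, and its libraries did not overlap.

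**Figure D2:**
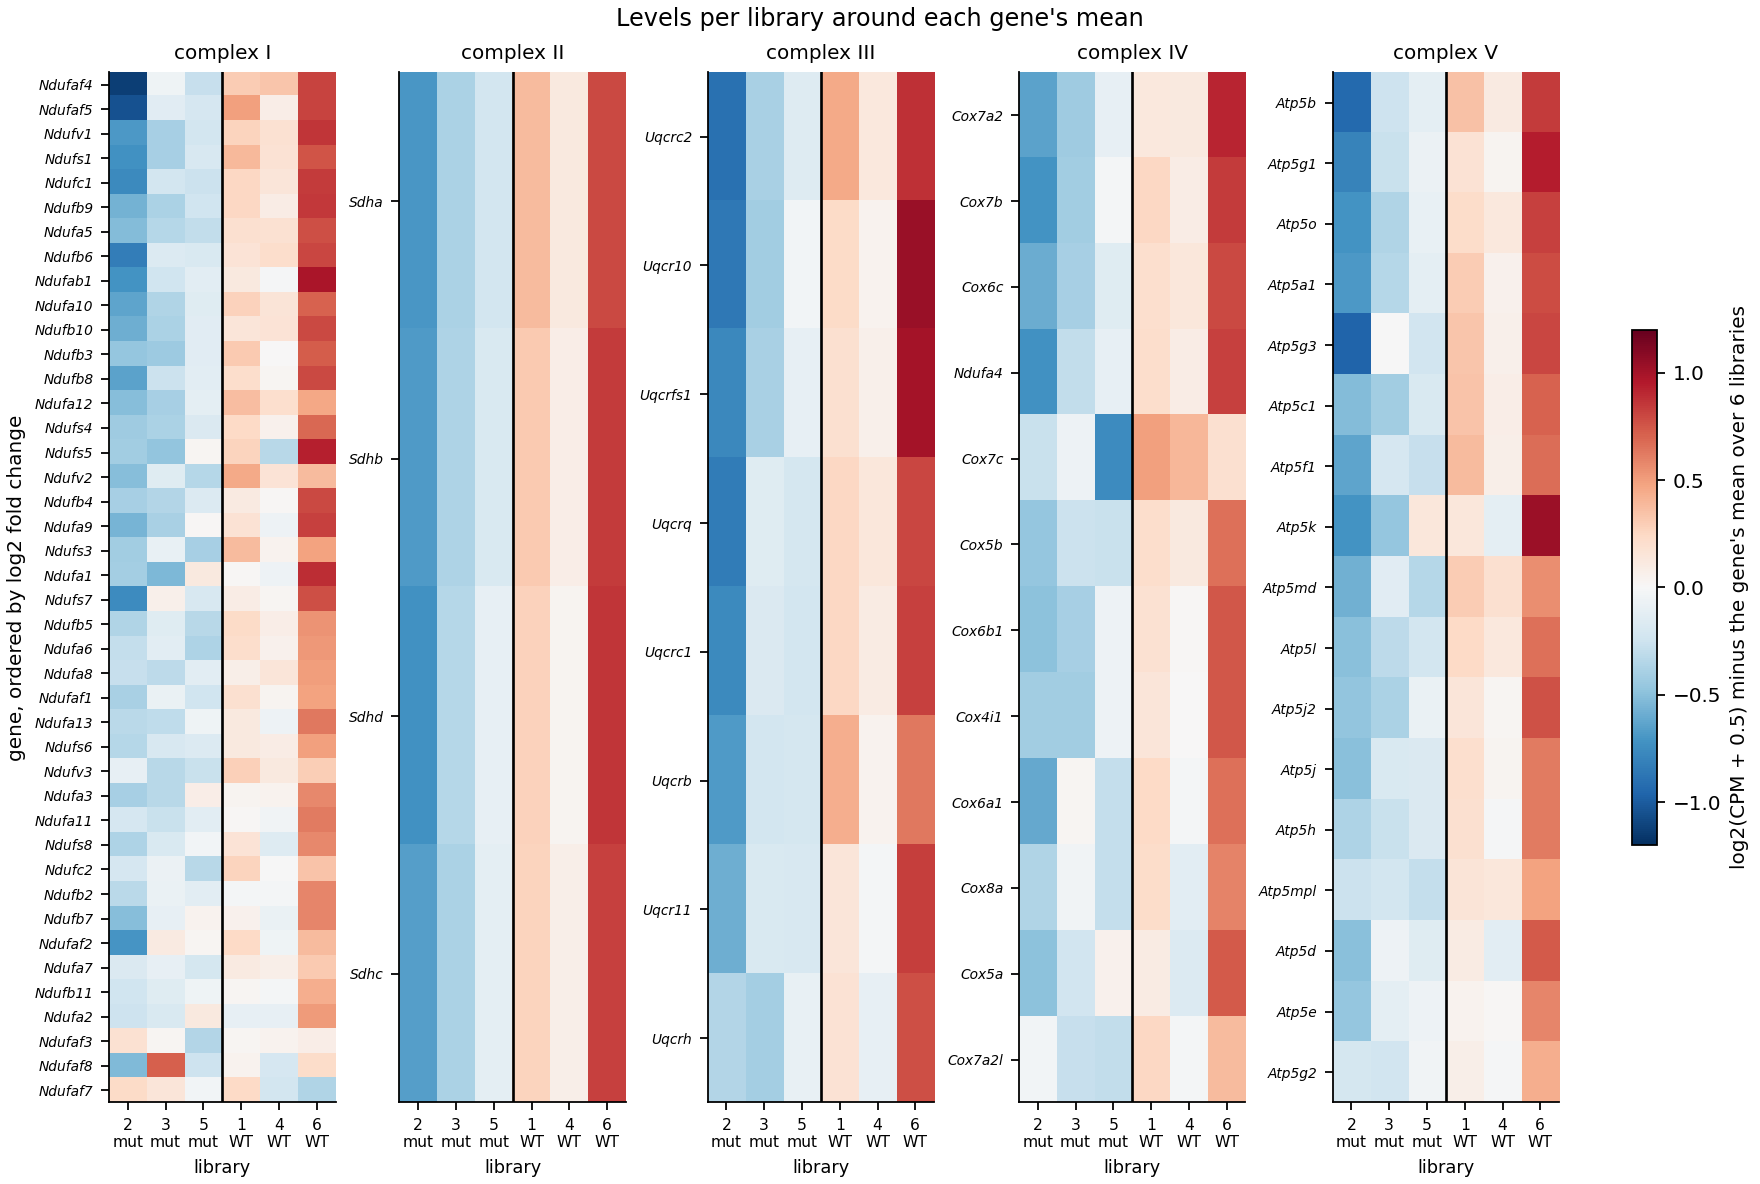
Level of 83 of the 84 genes in each library, as log2(CPM + 0.5) minus the gene's mean over the 6 libraries, with mutant libraries left of the line and wild-type libraries right of it; genes run from the lowest log2 fold change at the top to the highest at the bottom. Library 2 is the lowest and library 6 the highest in most rows, and the assembly factors *Ndufaf3*, *Ndufaf7* and *Ndufaf8* at the foot of complex I do not share this order.

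Osteoclast markers moved with the respiratory chain across the libraries. All 12 had a log2 fold change below 0, with a median of -1.49. With the naming batch 8 were called lower, against 5.60% of all tested genes, and 0 higher, against 3.08%. Their summed share of counts was 0.379%, 0.996% and 1.32% in mutant libraries and 1.94%, 1.72% and 4.07% in wild-type libraries, lowest in library 2 and highest in library 6, as for the respiratory chain genes. Of the single markers *Mmp9*, a matrix metalloprotease, had 882, 3362 and 4653 CPM in the mutant libraries and 5840, 4736 and 14110 CPM in the wild-type libraries, and *Ctsk*, the collagen-degrading protease cathepsin K, had 853, 2015 and 3291 CPM in the mutant libraries and 5736, 4626 and 12100 CPM in the wild-type libraries. Macrophage markers ran the other way, with 11 of 12 above 0 and a median of 0.89. With the naming batch 6 were called higher, against 3.08% of all tested genes, and 0 lower, against 5.60%. Their summed share was 0.969%, 0.952% and 0.965% in mutant libraries and 0.725%, 0.617% and 0.584% in wild-type libraries. The pair with the highest mean over all 6 libraries, *Csf1r* with 3237, 3014 and 3198 CPM in the mutant libraries and 3130, 2556 and 3023 CPM in the wild-type libraries and *Cd68* with 884, 890.2 and 1118 CPM in the mutant libraries and 1033, 921 and 1252 CPM in the wild-type libraries, overlapped between genotypes. *C1qb*, a complement gene named after its values were seen, was above *Cd68* in the mutant libraries and did not overlap, with 1465, 1332 and 1511 CPM in the mutant libraries and 730.1, 531 and 455 CPM in the wild-type libraries. The part of the osteoclast and macrophage markers in the difference of the respiratory chain genes was not tested.

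**Figure D3:**
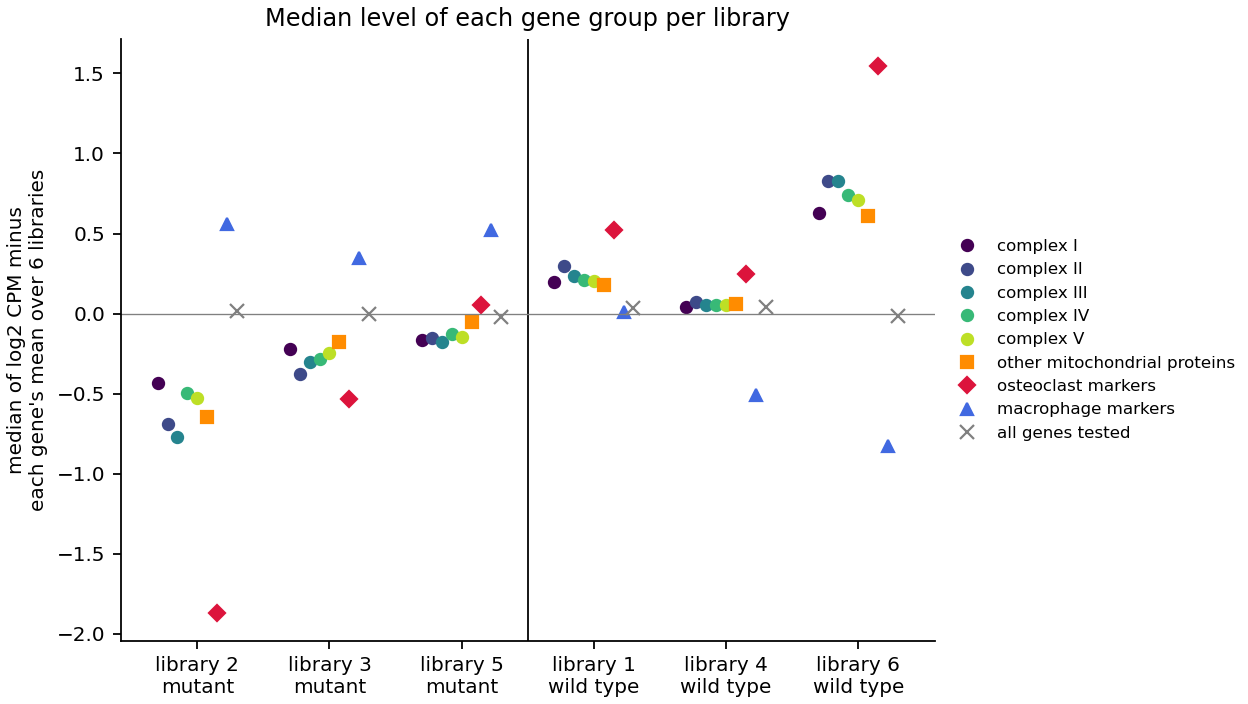
Median over the genes of each group of log2 CPM minus the gene's mean over the 6 libraries, for the 5 complexes, other mitochondrial proteins, osteoclast and macrophage markers and all tested genes; mutant libraries are left of the line, and symbols of a library are set side by side. The complexes and the osteoclast markers are lowest in library 2 and highest in library 6, with a wider range for the markers, from -1.87 to 1.54.

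The promoters of these genes are a known meeting point of a few factors: NRF1, the ETS factor GABP (also called NRF2), YY1 and the estrogen-related receptors (ERR). RefSeq promoter windows (GRCm38.p6, 250 bases before to 50 after the start) were found for 72 of the 84 genes. In these windows the NRF1 word (GCGCA and GCGC with any 1 base between them) on either strand occurred in 19 genes (26.4%), against 5.19% of all 27025 genes with a window. The ETS word CCGGAAG was found in 19 (26.4%), against 9.93%, the YY1 word AAGATGGC in 11 (15.3%), against 3.19%, and the ERR word AAGGTCA in 8 (11.1%), against 5.38%. Each word was searched on both strands and counted also where words overlap. At least 1 of the 4 was present in 43 of the 72 genes (59.7%), against 21.1% of all genes. The 27025 genes were not limited to those expressed in these libraries, while the 84 had passed a CPM threshold. No share over the tested genes alone was taken, so these gaps cannot be read as particular to the respiratory chain. A match is a stretch of letters and not a shown binding site. The median log2 fold change was -0.74 for the 19 genes with the NRF1 word and -0.65 for the 53 without, and -0.65 for the 43 genes with any of the 4 words and -0.68 for the 29 with none, and these differences were not tested.

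The 150 bases before the start are shown for a gene of each complex with as many of these words there as any other, and for the 3 genes of the ATP synthase c subunit, so that promoters with differing words can be set beside the values of their genes. The former are not typical, as most windows of the members hold no such word in this shorter stretch. The YY1 word lies in it in *Atp5j* alone, which is not shown. All come from RefSeq (GRCm38.p6), are on the minus strand of their chromosome and are read 5′ to 3′ towards the RefSeq start, which follows the last base. That start can differ from the gene's edge in the deposited table. For *Atp5g2* the whole stretch lies within the gene as given there (chr15:102662864-102672352). Capitals mark the words on either strand.
Ndufb4: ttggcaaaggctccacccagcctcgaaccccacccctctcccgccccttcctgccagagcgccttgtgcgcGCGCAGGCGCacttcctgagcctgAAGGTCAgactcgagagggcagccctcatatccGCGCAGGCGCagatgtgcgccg
Sdha: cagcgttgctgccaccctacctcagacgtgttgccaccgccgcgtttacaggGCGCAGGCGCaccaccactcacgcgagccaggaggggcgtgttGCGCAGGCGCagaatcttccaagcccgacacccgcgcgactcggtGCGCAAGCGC
Uqcr11: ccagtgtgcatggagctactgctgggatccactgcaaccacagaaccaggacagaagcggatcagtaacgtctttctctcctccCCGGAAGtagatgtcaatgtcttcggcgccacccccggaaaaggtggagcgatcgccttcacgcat
Cox6a1: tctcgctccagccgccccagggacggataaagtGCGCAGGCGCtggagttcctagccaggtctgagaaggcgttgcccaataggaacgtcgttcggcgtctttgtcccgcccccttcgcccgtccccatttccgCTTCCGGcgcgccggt
Atp5h: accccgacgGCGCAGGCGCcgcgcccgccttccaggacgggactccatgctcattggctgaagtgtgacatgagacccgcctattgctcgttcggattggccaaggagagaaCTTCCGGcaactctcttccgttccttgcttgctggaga
Atp5g1: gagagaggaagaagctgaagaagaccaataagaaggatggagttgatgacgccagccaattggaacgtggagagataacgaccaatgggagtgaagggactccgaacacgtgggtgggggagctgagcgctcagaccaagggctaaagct
Atp5g2: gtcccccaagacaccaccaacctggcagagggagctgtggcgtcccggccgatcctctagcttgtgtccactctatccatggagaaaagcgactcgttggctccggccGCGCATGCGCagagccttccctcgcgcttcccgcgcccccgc
Atp5g3: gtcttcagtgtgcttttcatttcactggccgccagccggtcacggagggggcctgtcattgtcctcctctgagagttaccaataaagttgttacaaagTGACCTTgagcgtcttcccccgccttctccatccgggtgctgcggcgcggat
*Ndufb4* (chr16:37654369-37654518) holds the NRF1 word at 2 places and the ERR word once between them. *Sdha* (chr13:74350241-74350390) holds the NRF1 word at 3 places, the nearest ending on the last base before the start. *Uqcr11* (chr10:80406822-80406971) has an ETS word, and *Cox6a1* (chr5:115348959-115349108) and *Atp5h* (chr11:115419920-115420069) each have an NRF1 word farther from the start and an ETS word nearer to it. The c subunit genes differ from each other, with no word in *Atp5g1* (chr11:96075632-96075781), an NRF1 word in *Atp5g2* (chr15:102671048-102671197) and an ERR word in *Atp5g3* (chr2:73911327-73911476).

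Complex I, the NADH dehydrogenase, had the median nearest to 0 of the 5 complexes. It was -0.60 over 43 genes, with 41 below 0. With the naming batch as a term 18 were called lower, against 5.60% of all tested genes. Its 7 nuclear core subunits had a median of -0.66, its 29 accessory subunits -0.60 and its 7 assembly factors -0.37. Without library 6 the median of the complex was -0.35, the farthest that leaving out a library moved it.

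The NADH-oxidising tip of complex I holds *Ndufs1*, *Ndufv1* and *Ndufv2*, and all 3 were called lower with the naming batch as a term (edgeR). *Ndufs1* (chr1:63143596-63176833 in GRCm38, per the deposited table), the largest subunit, an iron-sulphur protein, had 102, 128 and 148 CPM in the mutant libraries and 221, 190.3 and 286 CPM in the wild-type libraries. Every mutant library was below every wild-type library, and the mutant mean was 54.2% of wild type (log2 fold change -0.88, SE 0.205; edgeR adjusted p = 0.102, and 0.0186 with the naming batch). *Ndufv2*, an iron-sulphur subunit beside the flavin site, had 86.2, 111 and 96.7 CPM in the mutant libraries and 168, 137 and 159 CPM in the wild-type libraries (log2 fold change -0.66, SE 0.137; edgeR adjusted p = 0.0917, and 0.0367 with the naming batch). Its highest library was 1 and not 6. *Ndufv1*, which carries the flavin that takes electrons from NADH, had 70.3, 86.0 and 97.6 CPM in the mutant libraries and 137, 129 and 207 CPM in the wild-type libraries and the lowest adjusted p of the 84 genes with the naming batch, 0.0178 (edgeR). It was chosen after its values were seen.

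*Ndufs3*, *Ndufs7* and *Ndufs8* encode subunits of the arm that reaches towards ubiquinone and are named here after their values were seen. *Ndufs3* had 79.7, 99.9 and 80.3 CPM in the mutant libraries and 138, 109.6 and 149 CPM in the wild-type libraries, without overlap (log2 fold change -0.61, SE 0.158; edgeR adjusted p = 0.118, and 0.0617 with the naming batch), and it passed by DESeq2 (adjusted p = 0.0267). *Ndufs7*, an iron-sulphur subunit, had 46.2, 81.9 and 68.4 CPM in the mutant libraries and 83.7, 79.6 and 135 CPM in the wild-type libraries, and mutant library 3 was above wild-type library 4 (log2 fold change -0.60, edgeR adjusted p = 0.312). *Ndufs8*, also an iron-sulphur subunit, had 53.6, 61.2 and 67.8 CPM in the mutant libraries and 78.1, 62.5 and 104 CPM in the wild-type libraries, and mutant library 5 was above wild-type library 4 (log2 fold change -0.42, edgeR adjusted p = 0.319).

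Among the 29 accessory subunits of complex I all log2 fold changes were below 0, from -0.85 for *Ndufc1* to -0.23 for *Ndufa2*. With the naming batch 14 were called lower, against 5.60% of all tested genes. *Ndufa12*, which came nearest to the threshold with genotype alone and was named after its values were seen, had 41.9, 45.4 and 55.3 CPM in the mutant libraries and 77.8, 69.2 and 82.9 CPM in the wild-type libraries (log2 fold change -0.69, SE 0.137; edgeR adjusted p = 0.0859, and 0.0199 with the naming batch). Its groups did not overlap. *Ndufb4*, whose promoter is shown above, had 37.1, 38.1 and 43.7 CPM in the mutant libraries and 52.8, 49.6 and 85.0 CPM in the wild-type libraries, with library 6 well above the rest (log2 fold change -0.66). *Ndufa2*, at the other end, had 49.5, 51.7 and 64.0 CPM in the mutant libraries and 55.0, 54.8 and 84.0 CPM in the wild-type libraries, and its mutant library 5 was above wild-type libraries 1 and 4.

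The assembly factors of complex I, which help build it and are not part of the finished enzyme, spread over most of the range of the 84 genes. *Ndufaf4*, which helps assemble the ubiquinone-reducing arm, had 13.3, 28.7 and 24.4 CPM in the mutant libraries and 36.8, 37.6 and 52.6 CPM in the wild-type libraries, and its log2 fold change of -0.94 was the lowest of complex I (SE 0.302; edgeR adjusted p = 0.162, and 0.0799 with the naming batch). *Ndufaf7*, a methyltransferase that acts during assembly, had 13.1, 12.3 and 10.8 CPM in the mutant libraries and 13.2, 9.42 and 8.49 CPM in the wild-type libraries (log2 fold change 0.22, SE 0.229, edgeR adjusted p = 0.697), and its groups overlapped. *Ndufaf8*, a partner of the assembly factor *Ndufaf5*, had 7.89, 19.4 and 9.74 CPM in the mutant libraries and 12.0, 10.0 and 13.6 CPM in the wild-type libraries. Its mutant library 3 was far above the others, and its log2 fold change, 0.052 over all 6 libraries (SE 0.365, edgeR adjusted p = 0.974), became -0.43 without that library and -0.022 without library 4. None of the 7 was called with or without the naming batch or by DESeq2. Their all-library means began at 7.34 CPM, for *Ndufaf2*.

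Complex II, succinate dehydrogenase, also a citric acid cycle enzyme, is encoded entirely in the nucleus, and its 4 genes stood lower together. All 4 were called lower with the naming batch as a term, against 5.60% of all tested genes. All 4 were also called lower by DESeq2, against 6.00% of the genes to which it gave an adjusted p. In all 4 library 2 was the lowest and library 6 the highest. The median log2 fold change was -0.82, and the 4 values lay between -0.87 and -0.79. *Sdha*, the flavoprotein that oxidises succinate, had 352, 439 and 489.7 CPM in the mutant libraries and 742, 618 and 987 CPM in the wild-type libraries (log2 fold change -0.87, SE 0.219; edgeR adjusted p = 0.113, and 0.024 with the naming batch). The wild-type libraries were all above the mutant ones, and the mutant mean was 54.5% of wild type. *Sdhb*, the iron-sulphur subunit, had 136, 168 and 193 CPM in the mutant libraries and 272, 231 and 391 CPM in the wild-type libraries (log2 fold change -0.85, SE 0.233; edgeR adjusted p = 0.0234 with the naming batch).

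*Sdhc* and *Sdhd* encode the membrane anchors that bind ubiquinone. *Sdhd* had 135, 177 and 208 CPM in the mutant libraries and 272, 228 and 406 CPM in the wild-type libraries (log2 fold change -0.80, SE 0.260; edgeR adjusted p = 0.166, and 0.0314 with the naming batch). *Sdhc* had 107, 131 and 156 CPM in the mutant libraries and 205, 179 and 300.2 CPM in the wild-type libraries, the smallest difference of the 4 at -0.79 (SE 0.236; edgeR adjusted p = 0.146, and 0.0228 with the naming batch). In both, mutant libraries 2, 3 and 5 were all below the lowest wild-type library, number 4.

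Complex III, the cytochrome bc1 complex, had a median log2 fold change of -0.79 over the 8 genes with such names, all below 0. With the naming batch 4 were called lower, against 5.60% of all tested genes. Without library 6 the median was -0.52. *Uqcrc2* (chr7:120635176-120659524), core protein 2 on the matrix side, had 145, 206 and 243 CPM in the mutant libraries and 370.2, 295 and 496 CPM in the wild-type libraries. Its log2 fold change of -0.97 was the lowest of all 84 genes (SE 0.260; edgeR adjusted p = 0.128, and 0.0248 with the naming batch), and the mutant mean was 51.2% of wild type. Its partner *Uqcrc1*, core protein 1, had 175, 263 and 255 CPM in the mutant libraries and 352, 319 and 524 CPM in the wild-type libraries, also without overlap (log2 fold change -0.79, SE 0.247; edgeR adjusted p = 0.0528 with the naming batch, DESeq2 adjusted p = 0.0388). The 2 core proteins are present in equal numbers in the enzyme, and *Uqcrc2* passed with the naming batch and by DESeq2 (adjusted p = 0.0107), *Uqcrc1* by DESeq2 alone. The difference between the genes was not tested.

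*Uqcrfs1* encodes the Rieske iron-sulphur protein, the electron-carrying subunit of complex III that is nuclear besides cytochrome c1. It had 92.9, 122 and 149 CPM in the mutant libraries and 183, 167 and 320.0 CPM in the wild-type libraries, with library 6 far above the others (log2 fold change -0.88, SE 0.299; edgeR adjusted p = 0.178, and 0.0255 with the naming batch). *Uqcrh*, the hinge protein next to cytochrome c1, had the smallest shift of the complex, at 138, 133 and 165 CPM in the mutant libraries and 199, 165 and 302 CPM in the wild-type libraries. Its mutant library 5 and wild-type library 4 were equal within rounding, so the groups overlapped (log2 fold change -0.61, SE 0.238; edgeR adjusted p = 0.225, and 0.0514 with the naming batch). *Uqcr11*, a small subunit whose promoter is shown above, had 61.1, 80.9 and 80.2 CPM in the mutant libraries and 102, 89.9 and 163 CPM in the wild-type libraries, without overlap (log2 fold change -0.68). Cytochrome c1 itself, *Cyc1*, carries a name outside the symbol rule. It had 85.7, 180.0 and 196 CPM in the mutant libraries and 259.7, 240.1 and 474 CPM in the wild-type libraries (log2 fold change -1.08, SE 0.393; edgeR adjusted p = 0.203, and 0.0599 with the naming batch).

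Complex IV, cytochrome c oxidase, keeps its catalytic core in mitochondrial DNA, and the 12 nuclear genes counted here surround and regulate it. Their median log2 fold change was -0.67, and all were below 0. With the naming batch 8 were called lower, against 5.60% of all tested genes. DESeq2 called 3 lower, against 6.00% of the genes to which it gave an adjusted p. Leaving out library 6 brought the median to -0.44. *Cox7a2* had the lowest value of the complex, with 72.4, 84.1 and 106 CPM in the mutant libraries and 124, 123 and 213 CPM in the wild-type libraries (log2 fold change -0.81, SE 0.262; edgeR adjusted p = 0.163, and 0.0206 with the naming batch). *Cox4i1*, the largest nuclear subunit, had 291, 291 and 371 CPM in the mutant libraries and 428, 390.4 and 649.5 CPM in the wild-type libraries. Mutant libraries 2 and 3 were nearly equal, all 3 were below wild type, and the log2 fold change was -0.62 (SE 0.227; edgeR adjusted p = 0.201, and 0.0349 with the naming batch).

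*Cox5a* and *Cox5b* sit on the matrix side of complex IV and differed in how well the genotypes separated. *Cox5b*, the zinc-binding subunit, had 123, 143 and 142 CPM in the mutant libraries and 197, 185 and 269.5 CPM in the wild-type libraries, without overlap and with little spread among mutants (log2 fold change -0.68, SE 0.170; edgeR adjusted p = 0.113, and 0.0323 with the naming batch). *Cox5a* had 141, 169 and 205 CPM in the mutant libraries and 213, 177 and 330.4 CPM in the wild-type libraries, and mutant library 5 was above wild-type library 4 (log2 fold change -0.48, SE 0.263; edgeR adjusted p = 0.388, and 0.104 with the naming batch). *Cox6a1*, whose promoter is shown above, had 131, 203 and 164 CPM in the mutant libraries and 237, 198 and 318 CPM in the wild-type libraries, and mutant library 3 was above wild-type library 4 (log2 fold change -0.59). *Cox7a2l*, counted here as a supercomplex factor and not as a subunit of the isolated enzyme, had the smallest shift. It had 302, 254 and 251 CPM in the mutant libraries and 367, 304 and 401 CPM in the wild-type libraries (log2 fold change -0.41, SE 0.148, edgeR adjusted p = 0.2, and 0.149 with the naming batch).

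Several complex IV subunits have a second gene used mainly in heart, skeletal muscle, lung or testis in mammals. Of these, *Cox4i2*, *Cox6a2* and *Cox6b2* stayed near the floor in both genotypes, while *Cox7a1* reached 5 CPM before scaling in 2 libraries, both wild-type. *Cox7a1*, the heart and muscle form, had 1.68, 2.95 and 3.42 CPM in the mutant libraries and 6.99, 4.25 and 7.61 CPM in the wild-type libraries, without overlap (log2 fold change -1.23, SE 0.419, edgeR adjusted p = 0.18). It made up 2.26%, 3.39% and 3.13% of the *Cox7a1* and *Cox7a2* counts in mutant libraries and 5.34%, 3.34% and 3.44% in wild-type libraries, a difference with an exact two-sided permutation p of 0.2, where 0.1 is the smallest that 3 libraries against 3 allow. Of the other pairs, the muscle form *Cox6a2* gave 0.385% ± 0.153 in mutant and 0.461% ± 0.0321 in wild-type libraries of its pair with *Cox6a1*, and the testis form *Cox6b2* 1.02% ± 0.533 and 0.471% ± 0.252 of its pair with *Cox6b1* (SD, n = 3 each). *Cox4i2*, the lung form, gave 0.0753% ± 0.0186 in mutant and 0.159% ± 0.188 in wild-type libraries of its pair with *Cox4i1* (SD, n = 3 each). The exact permutation p-values of these 3 pairs were 0.6, 0.2 and 0.8 (0.7, 0.467 and 0.8 after Benjamini-Hochberg adjustment over 7 share tests, with 0.467 for *Cox7a1*), and shares of counts are not corrected for gene length.

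Complex V, the ATP synthase, supplied the most abundant of the transcripts. The median log2 fold change of its 17 genes was -0.70, and all were below 0. Without library 6 this median was -0.44. With the naming batch 10 were called lower, against 5.60% of all tested genes. *Atp5b* (chr10:128083273-128090391), the catalytic beta subunit of the F1 head, had 702, 1132 and 1240 CPM in the mutant libraries and 1719, 1446 and 2405 CPM in the wild-type libraries. The mutant libraries were all below the wild-type ones, and the means were 1024 ± 285 CPM in mutant and 1857 ± 494 CPM in wild-type libraries (SD, n = 3 each). The log2 fold change was -0.86, the lowest of the complex (SE 0.287; edgeR adjusted p = 0.173, and 0.0533 with the naming batch), and DESeq2 gave an adjusted p of 0.036. *Atp5a1*, the alpha subunit that alternates with beta, had 639, 813 and 950.4 CPM in the mutant libraries and 1272, 1070 and 1769 CPM in the wild-type libraries, also without overlap, with means of 801 ± 156 CPM in mutant and 1371 ± 360.1 CPM in wild-type libraries (SD, n = 3 each). Its log2 fold change was -0.78 (SE 0.244; edgeR adjusted p = 0.158, and 0.0357 with the naming batch).

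The central stalk that turns inside the F1 head consists of the products of *Atp5c1*, *Atp5d* and *Atp5e*. *Atp5c1*, the gamma subunit, had 200.4, 216 and 254 CPM in the mutant libraries and 366, 305 and 471 CPM in the wild-type libraries and was called lower with the naming batch (log2 fold change -0.77, SE 0.190, edgeR adjusted p = 0.0226). *Atp5d* and *Atp5e*, with log2 fold changes of -0.51 and -0.45, were not (edgeR adjusted p = 0.178 and 0.101). These names and those of the outer stalk and membrane subunits below were chosen after their values were seen. The outer stalk, *Atp5f1*, *Atp5h*, *Atp5j* and *Atp5o*, had log2 fold changes from -0.79 for *Atp5o* to -0.56 for *Atp5h*, and *Atp5f1* and *Atp5o* passed with the naming batch. The membrane accessory subunits *Atp5j2*, *Atp5k*, *Atp5l*, *Atp5md* and *Atp5mpl* lay between -0.74 and -0.53, and all 5 passed with the naming batch. In *Atp5k* the groups overlapped, with mutant library 5 at 60.83 CPM and wild-type libraries 1 and 4 at 60.7 and 51.05 CPM. It was not called by DESeq2 (adjusted p = 0.241). The values of *Atp5l* are uncertain because of the shared stretches described below. *Atp5mpl*, a small proteolipid, had 56.5, 58.0 and 55.3 CPM in the mutant libraries and 75.2, 74.3 and 94.8 CPM in the wild-type libraries, the tightest mutant values of the complex relative to their mean.

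**Figure D4:**
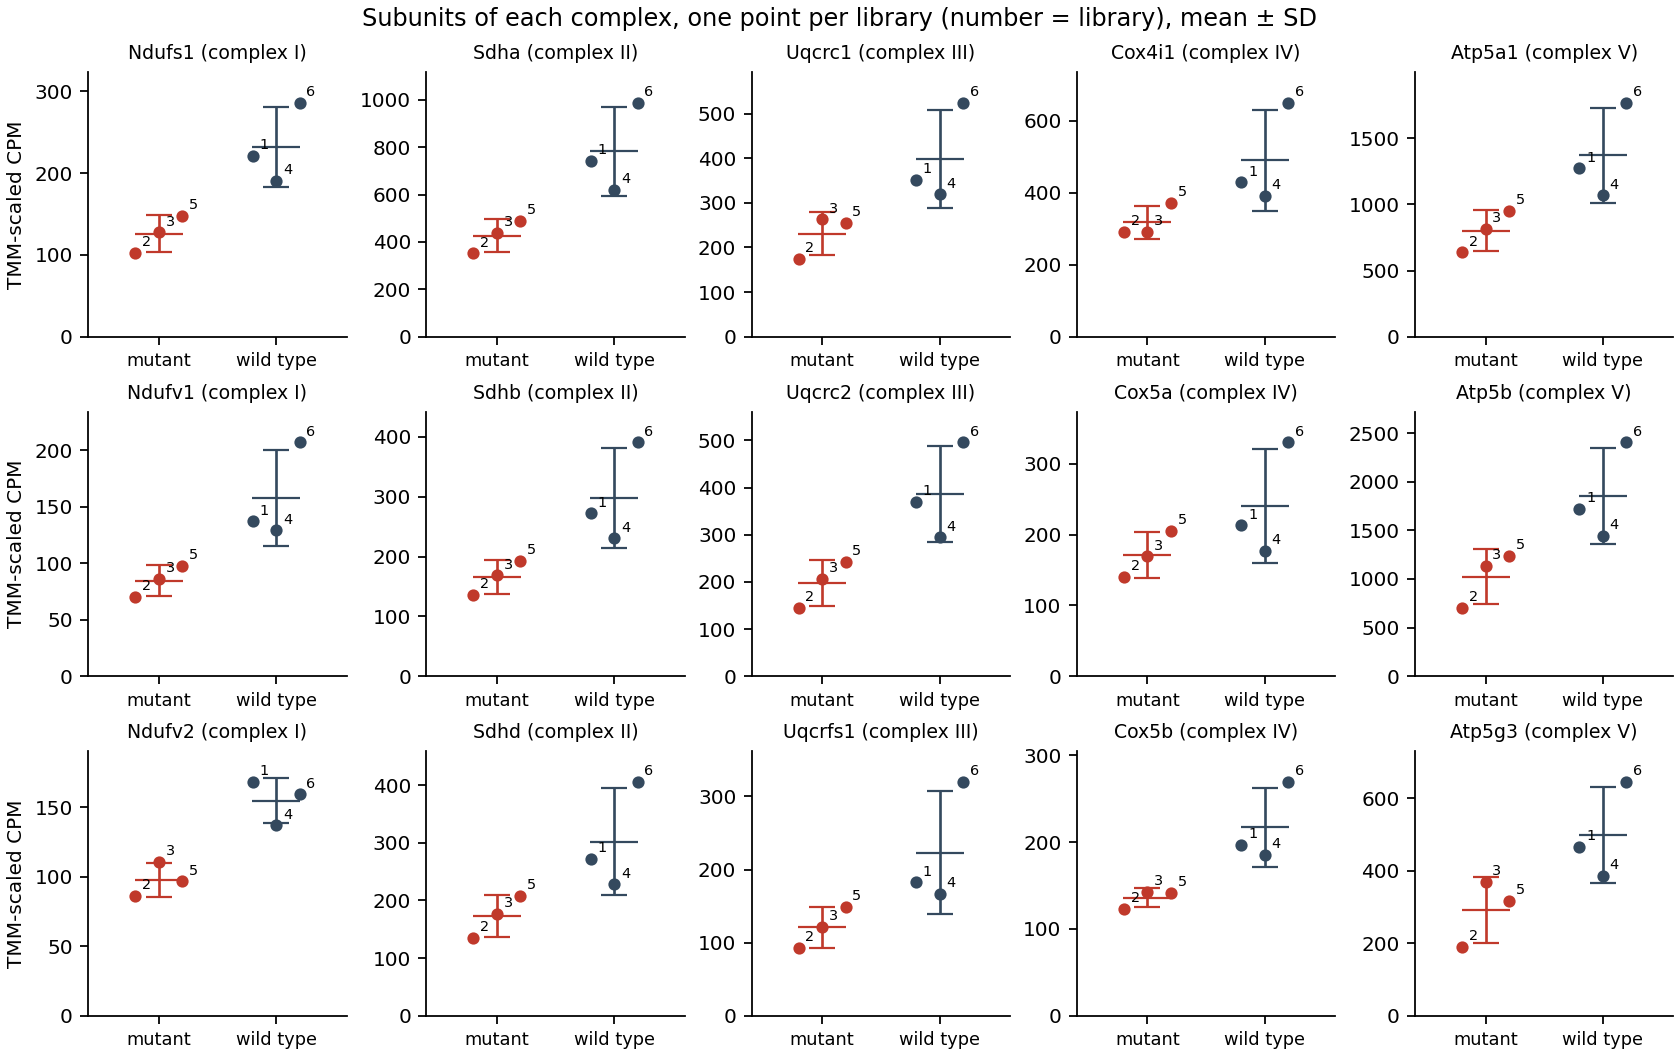
TMM-scaled CPM of 3 subunits of each complex, with a point per library labelled by its number, a bar for the mean and whiskers of 1 SD (n = 3 per genotype), mutant left of wild type, on axes that start at 0. Library 6 is the highest in all panels but *Ndufv2*, and the groups overlap in *Cox5a* alone among these 15 genes.

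The rotating ring of the ATP synthase is built from c subunits, and *Atp5g1*, *Atp5g2* and *Atp5g3* encode the same mature protein with different import sequences. *Atp5g3* was the most abundant, with 191, 369 and 317 CPM in the mutant libraries and 466, 386 and 645 CPM in the wild-type libraries (log2 fold change -0.77, SE 0.297; edgeR adjusted p = 0.222, and 0.122 with the naming batch). *Atp5g1* had 75.7, 109.7 and 126 CPM in the mutant libraries and 149.5, 135 and 255 CPM in the wild-type libraries (log2 fold change -0.79, SE 0.298; edgeR adjusted p = 0.213, and 0.0433 with the naming batch). *Atp5g2* had the smallest shift of complex V, with 154, 152 and 173 CPM in the mutant libraries and 187, 176 and 241 CPM in the wild-type libraries (log2 fold change -0.34, SE 0.150; edgeR adjusted p = 0.285, and 0.108 with the naming batch). In none of the 3 did the groups overlap.

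Of the counts of the 3 genes, *Atp5g2* gave 36.6%, 24.1% and 28.1% in mutant libraries and 23.4%, 25.3% and 21.1% in wild-type libraries. Its mean share was 29.6% ± 6.41 in mutant and 23.2% ± 2.07 in wild-type libraries (SD, n = 3 each; exact two-sided permutation p = 0.2), and mutant library 3 was below wild-type library 4. *Atp5g3* averaged 51.8% ± 6.59 in mutant and 56.6% ± 1.33 in wild-type libraries, and *Atp5g1* 18.6% ± 1.59 and 20.1% ± 1.95 (SD, n = 3 each; exact p = 0.4 for each gene). With the isoform pairs of complex IV these were 7 tests, and after Benjamini-Hochberg adjustment the exact permutation p was 0.467 for *Atp5g2* and 0.56 for both others, so that none of the 3 shares passed; 3 libraries against 3 cannot reach 0.05.

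**Figure D5:**
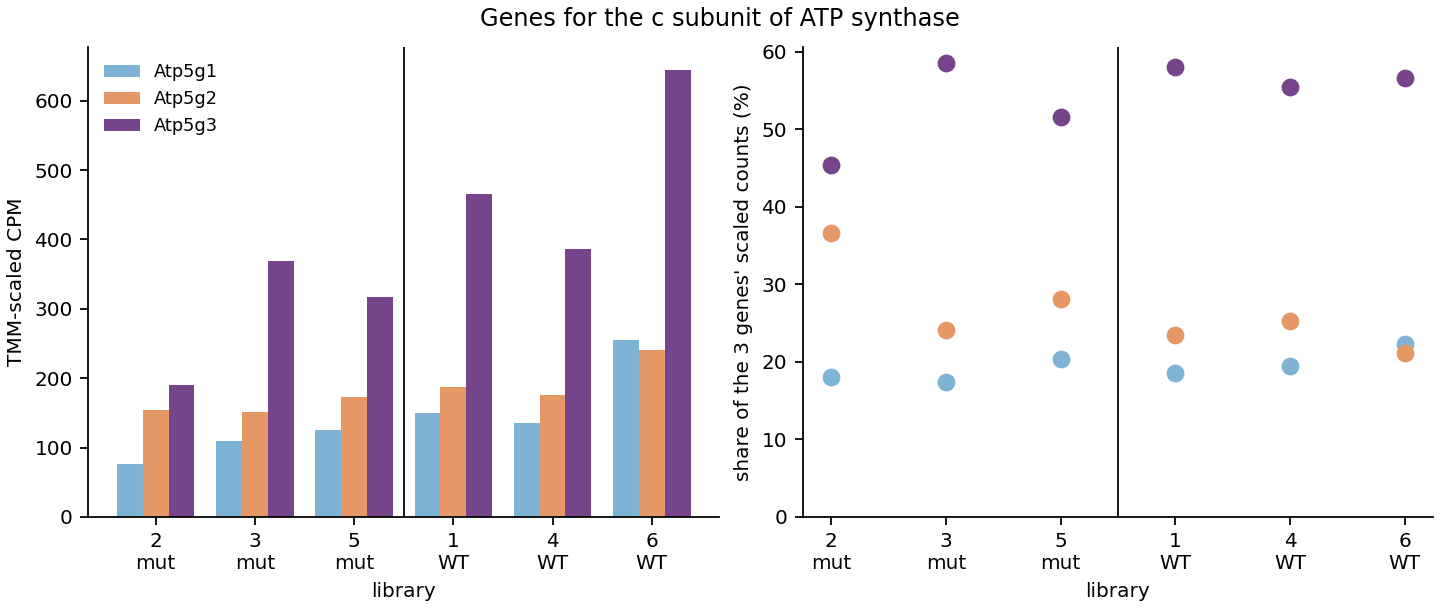
Left, TMM-scaled CPM of the 3 c subunit genes in each library as bars from 0; right, each gene's share of their summed scaled counts in percent. Mutant libraries are left of the line. *Atp5g3* is the largest part in every library, and the *Atp5g2* share is highest in library 2 at 36.6%.

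Complex V gave the largest part of the respiratory chain counts in every library. It gave 36.6%, 39.6% and 39.4% of the counts of the 84 genes in mutant libraries and 39.8%, 39.2% and 39.6% in wild-type libraries. Complex I gave 25.0%, 23.4% and 22.9% in mutant and 22.4%, 23.2% and 21.9% in wild-type libraries, which overlapped. The share of complex II was 8.67%, 8.67% and 9.18% in mutant libraries, below its 9.79%, 9.48% and 9.82% in wild-type libraries, and that of complex III was 9.50%, 10.2% and 10.4% in mutant and 10.6%, 10.4% and 11.2% in wild-type libraries. Complex IV gave 20.2%, 18.2% and 18.1% in mutant libraries and 17.5%, 17.7% and 17.5% in wild-type libraries, so that each mutant library was above each wild-type one. These are descriptions without a test, and the largest 95% Wilson interval reached 0.30 points to each side.

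Levels of different genes were compared per length, as mean CPM per kilobase of annotated exon. *Atp5b* and *Atp5a1* had 242 and 255 CPM per kilobase in mutant libraries and 438 and 437 CPM per kilobase in wild-type libraries, the highest of the 84 genes in wild type. *Cox8a* was above both in mutant libraries, at 277 CPM per kilobase. *Cox8a*, *Cox6b1* and *Cox6a1* followed in wild-type libraries at 388, 364 and 357 CPM per kilobase, steps smaller than the SD between libraries of any of them. That SD is not the spread of a difference between genes measured in the same libraries, and the steps were not tested. In 28 genes the annotated exons add up to over 2 times the length of the principal transcript, so this length can understate a level. Per kilobase of principal transcript, a length chosen after seeing the data, *Atp5b* stayed at the top with 534 CPM per kilobase in mutant and 969 CPM per kilobase in wild-type libraries. *Atp5g3*, *Cox4i1* and *Atp5a1* then came next at 690.0, 639.6 and 555 CPM per kilobase in wild-type libraries, so the order below *Atp5b* depends on the length used.

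The threshold of 5 CPM left out 7 genes with fitting names, with *Cox4i2*, *Cox6a2*, *Cox6b2*, *Ndufa4l2* and *Ndufb4c* at the low end. The nearest left out were the assembly factor *Ndufaf6*, whose third-highest library reached 4.94 CPM before scaling, and *Cox7a1* with 4.45 CPM. *Ndufaf6* had 3.63, 4.78 and 3.72 CPM in the mutant libraries and 5.48, 5.25 and 4.57 CPM in the wild-type libraries, with mutant library 3 above wild-type library 6 (log2 fold change -0.33, SE 0.296, edgeR adjusted p = 0.631). Just inside it were the assembly factors *Ndufaf2* with 7.98 CPM and *Ndufaf8* with 11.7 CPM. Of the 84, 83 reached 5 CPM in all 6 libraries. The exception was *Ndufaf2*, under it in mutant library 2.

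Genes that work with the respiratory chain but are named otherwise were read from lists that were drawn up with earlier results of these data known. Cytochrome c, *Cycs*, which carries electrons from complex III to IV, had 76.9, 153 and 205 CPM in the mutant libraries and 271, 237 and 437 CPM in the wild-type libraries. It did not overlap and was called lower with the naming batch (log2 fold change -1.12, SE 0.398; edgeR adjusted p = 0.193, and 0.0393 with the naming batch). *Atpif1*, an inhibitor of the ATP synthase, was close to equal, with 149, 131 and 112 CPM in the mutant libraries and 158, 143 and 125 CPM in the wild-type libraries (log2 fold change -0.12, SE 0.148, edgeR adjusted p = 0.765). The 12 genes of electron-transfer flavoprotein and ubiquinone synthesis had a median log2 fold change of -0.55. With the naming batch 4 were called lower, against 5.60% of all tested genes, and 0 higher, against 3.08%. *Etfa*, a flavoprotein subunit that feeds electrons from fat oxidation to ubiquinone, had 72.0, 84.0 and 94.3 CPM in the mutant libraries and 132, 114 and 156 CPM in the wild-type libraries, and *Etfdh*, which takes them from it, had 59.3, 76.4 and 82.7 CPM in the mutant libraries and 109, 92.4 and 134 CPM in the wild-type libraries. Both were among the 4.

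Assembly factors of complexes II to V had a median log2 fold change of -0.37, nearer to 0 than the subunits. Of 33 in the table, 31 were below 0, 6 were called lower and 0 higher with the naming batch. Over all tested genes 53.2% were below 0, and with the naming batch 5.60% were called lower and 3.08% higher. These shares are the background for the other counts of this paragraph too. *Lrpprc*, which stabilises mitochondrial messenger RNA, had 66.0, 89.2 and 91.8 CPM in the mutant libraries and 137, 122 and 167 CPM in the wild-type libraries and was among the 6 (edgeR adjusted p = 0.0251). *Coa5*, the most abundant, had 143, 179 and 190.2 CPM in the mutant libraries and 211, 189.9 and 223 CPM in the wild-type libraries and was not (edgeR adjusted p = 0.214). Of 7 complex I assembly factors named otherwise, 3 were called lower and 0 higher with the naming batch, among them *Foxred1*, with 37.5, 40.5 and 41.0 CPM in the mutant libraries and 54.1, 56.9 and 64.0 CPM in the wild-type libraries. *Acad9*, at 24.9, 25.5 and 32.0 CPM in the mutant libraries and 30.2, 30.3 and 35.0 CPM in the wild-type libraries, was not. Other mitochondrial proteins, such as import pores, carriers and chaperones, moved in the same direction as the respiratory chain. All 15 were below 0 with a median log2 fold change of -0.56, and 5 were called lower and 0 higher with the naming batch. The ADP/ATP carrier gene *Slc25a5* had 375, 536 and 655 CPM in the mutant libraries and 769, 674 and 1135 CPM in the wild-type libraries, and the mitochondrial chaperone *Hspa9* had 242, 348 and 395 CPM in the mutant libraries and 469.6, 395 and 597 CPM in the wild-type libraries.

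Known regulators of mitochondrial formation gave a mixed picture. Of 12, 8 had a log2 fold change below 0 and 4 above, with a median of -0.24, and 1, the mitochondrial transcription factor *Tfb2m*, was called lower with the naming batch (1 of 12, beside 5.60% of all tested genes). The largest of the 4 above 0 was *Ppargc1a*, named after its values were seen. It lay near the floor, with 3.77, 0.81 and 0 CPM in the mutant libraries and 0.58, 2.32 and 0.080 CPM in the wild-type libraries. Its direction is therefore uncertain (log2 fold change 0.61, SE 1.58, edgeR adjusted p = 0.915). *Ppargc1b*, a coactivator known to drive mitochondrial formation in mouse osteoclasts and named after its values were seen, had 10.2, 30.5 and 34.7 CPM in the mutant libraries and 57.0, 48.4 and 104 CPM in the wild-type libraries. Its groups did not overlap and its log2 fold change was -1.48 (SE 0.501; edgeR adjusted p = 0.178, 0.0523 with the naming batch, and 0.0317 by DESeq2). *Esrra*, its partner among the estrogen-related receptors, had 41.3, 71.6 and 62.2 CPM in the mutant libraries and 87.8, 79.5 and 128 CPM in the wild-type libraries (log2 fold change -0.76, SE 0.262; edgeR adjusted p = 0.184, and 0.0867 with the naming batch). *Yy1* and, also named after the fact, *Nrf1* and *Gabpa* had log2 fold changes of 0.023, 0.17 and -0.19, with edgeR adjusted p-values of 0.967, 0.641 and 0.349.

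Markers of other cells that marrow cultures can hold did not have both their lowest share in library 2 and their highest in library 6. Neutrophil markers had their highest summed share, 0.130%, in mutant library 5, with *S100a9* at 129.5, 152 and 418 CPM in the mutant libraries and 74.6, 68.0 and 252 CPM in the wild-type libraries and *Ngp* at 138, 163 and 342 CPM in the mutant libraries and 98.3, 81.8 and 248 CPM in the wild-type libraries, and the defining gene *Ly6g* had 5 to 19 counts per library. Of their 7 tested genes 4 were called higher with the naming batch and 0 lower. Over all tested genes that fit called 3.08% higher and 5.60% lower, the background for the other markers of this paragraph too. Stromal markers took 0.0806%, 0.235% and 0.349% in mutant libraries and 0.0928%, 0.105% and 0.257% in wild-type libraries, led by the collagen genes, with *Col1a1* at 276, 1137 and 1608 CPM in the mutant libraries and 413, 377 and 1235 CPM in the wild-type libraries and *Col1a2* at 303, 815 and 1443 CPM in the mutant libraries and 358, 343 and 993 CPM in the wild-type libraries. Library 5 had the highest of the mutant shares and library 6 the highest of the wild-type shares. Of 8 stromal genes tested 0 were called, and the osteoblast gene *Bglap* had at most 4 counts. Lymphocyte markers took at most 0.0172%, with *Cd3e* at 0 counts in 5 libraries and 1 in the other and *Cd79a* at 1.54, 3.36 and 3.35 CPM in the mutant libraries and 3.38, 1.16 and 1.04 CPM in the wild-type libraries, while *Cd4* had 169, 154 and 122 CPM in the mutant libraries and 153, 70.0 and 33.7 CPM in the wild-type libraries. Dendritic cell markers took 0.168%, 0.146% and 0.507% in mutant libraries and 0.106%, 0.0740% and 0.170% in wild-type libraries, led by *Cd74* with 1110, 932 and 3127 CPM in the mutant libraries and 732, 487 and 1077 CPM in the wild-type libraries and *H2-Aa* with 319, 267 and 1240 CPM in the mutant libraries and 193, 115 and 366 CPM in the wild-type libraries, and 3 of 6 tested were called higher and 0 lower with the naming batch. The other direction was seen in *Zbtb46*, with 3.14, 1.83 and 2.83 CPM in the mutant libraries and 3.38, 3.94 and 6.01 CPM in the wild-type libraries, and *Itgax*, with 3.63, 7.73 and 14.1 CPM in the mutant libraries and 10.0, 9.19 and 23.1 CPM in the wild-type libraries (log2 fold changes -0.77 and -0.73), both highest in library 6 and named after their values were seen. The part of these cell type markers in the results was not tested.

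Many respiratory chain genes have processed pseudogenes, and reads from these cannot always be separated. In 21 of the 84 genes 10% or more of all 75-base stretches of a transcript also occur, on either strand, in transcripts of other annotated genes. In *Atp5l* 76.0% do, so its values are uncertain. The other gene is not always a pseudogene. In *Cox4i1*, *Cox5a*, *Ndufa13*, *Ndufb5*, *Ndufb6* and *Uqcrc2* it is only a neighbour overlapping on the other strand, so the 21 genes include some of the 28 named next. Exons of 28 genes overlap those of a gene on the other strand, such as *Atp5j*, which shares 397 bases with *Gabpa*, and the counting program's strand setting is not given in the sources used here. The 63 genes below 10% had a median log2 fold change of -0.66, with 32 called lower with the naming batch, and the 56 genes with no such overlap had -0.69 (edgeR, genotype only) with 31 called lower.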

How the data were processed

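Poly(A) RNA of 6 osteoclast cultures was read on 1 end over 75 bases from stranded libraries, per the labels' protocols. TopHat2 2.0.13, Bowtie2 2.2.3 and SAMtools 0.1.19 with build mm10 were used, per the submitters' processing notes; which program counted the reads, with which strand setting, is not given in the sources used here. The authors deposited raw counts per Ensembl gene, not normalized. The table of 23264 rows held 60 repeats of genes already listed, which were left out (*Ndufb4* stood there 3 times). Column names give the genotype but no replicate number.

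After filterByExpr and TMM scaling, 14040 genes were tested for genotype alone by the quasi-likelihood test of edgeR 4.0.16 (R 4.3.3), and p-values were adjusted over all of them (Benjamini-Hochberg, 0.05). A standard error is the log2 fold change without its sign, divided by the root of F. Libraries of a genotype varied by 40.9% (edgeR's common coefficient of variation; 23.5% once the naming batch was fitted), which sets the precision. CPM are TMM-scaled, except for the choice of members, which used library totals. Centred log2 CPM used a prior count of 2. Alternatives were DESeq2 1.42.0, the naming batch, other scalings and filters, each library left out, and other memberships and lengths. The tests were also run on simulated counts with 200 changed genes, drawn independently of each other, and no result here rests on that run. Exon lengths, overlaps and shared stretches came from GENCODE M21, on the same build, and promoters from RefSeq.

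The members, lists and tests were chosen with earlier results of these data known. Genes named were, per complex, 3 subunits (of complex I the core subunits with the highest means, of complex III *Uqcrfs1* and both core proteins, of complex IV *Cox4i1*, *Cox5a* and *Cox5b*, of II and V the core subunits with the highest means), the members with the lowest and highest log2 fold change, every member above 0, the *Atp5g* genes, the complex IV isoforms, the genes next to the CPM threshold and up to 2 abundant genes of each list, except 1 gene that is not reported here; other names are marked as chosen after their values were seen or, for the remaining subunits of a module, complete that module.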

Additional observations from a re-analysis of the deposited data

How the results depend on the processing

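No paired analysis was possible because the columns carry no replicate numbers. The count of the 84 genes called lower was 0 with genotype alone in edgeR, under each scaling, without the low-count filter, under each membership, in libraries 1 to 4 alone and without each library in turn. Fitting the naming batch gave 44 and DESeq2 gave 32, and the count ranged from 0 to 64 when a library was left out with the batch term (0 without library 4, 5 or 6, 1 without library 2, 8 without library 1, 64 without library 3). Without library 5 or 6 the fit with the batch term compares the genotypes in libraries 1 to 4 alone. The count called higher was 0 under every alternative run. The median log2 fold change stayed below 0 for all 84 genes and each complex under all of them. With a library left out it ranged from -0.78 to -0.42 over the 84 genes, from -0.71 to -0.35 for complex I, from -0.97 to -0.56 for complex II, from -0.99 to -0.52 for complex III, from -0.79 to -0.44 for complex IV and from -0.81 to -0.44 for complex V, and moved by more than the spread between libraries for complexes I (-0.35) and V (-0.44) without library 6. *Ndufaf8*, at 0.052, ranged from -0.43 to 0.32 with a library left out (-0.48 to 0.31 with the batch term) and changed sign, to -0.43 without library 3 (-0.48 with the batch term), -0.022 without library 4 (-0.080 with the batch term) and -0.48 between libraries 5 and 6. No scaling moved the median of all genes by over 0.1. In wild-type libraries, *Atp5b* gave 438 CPM per kilobase of exon, 261 per kilobase of gene span and 969 per kilobase of principal transcript, and *Atp5a1* 437, 150.0 and 555, since the lengths differ by construction. The cause of the other changes was not tested. Libraries held 8794973 to 14267135 counts.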
